A study of Homo sapiens with 10 samples.

Results

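Translation after 19 h of nutlin-3a was compared with translation in untreated BJ cells, as ribosome footprint density, as RNA level and as the ratio of both. The comparison covered 7015 genes of the 11258 whose transcript was listed for RNA-Seq and for Ribo-Seq. They were chosen by level alone, as genes with at least 5 FPKM (fragments per kilobase of transcript, scaled to library size) in at least 1 library of each assay. BJ cells are human fibroblasts immortalised with telomerase, and nutlin-3a is a small molecule that keeps MDM2 from binding p53 and so activates p53. The study followed this treatment for 2, 4, 6 and 19 h with 10 libraries, and 4 of them enter the comparison: RNA-Seq and Ribo-Seq of the untreated control and of cells at 19 h. The untreated control and the treated cells belong to the same cell line, and the labels name no further treatment that sets the groups apart. With 1 library per group the differences could not be set against the spread of replicates, and no p-value is given. Errors are counting errors alone.

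Ribo-Seq sequences the stretches of mRNA that a ribosome shields from nuclease, and the footprint density of an mRNA grows with the number of ribosomes on it. Translation efficiency (TE) is that density divided by the RNA level, so a change in TE is the part of a density change that RNA does not account for. The mRNAs of ribosomal proteins and of several translation factors start with a C followed by a run of pyrimidines, the 5′ terminal oligopyrimidine (TOP) motif. Cells hold TOP mRNAs off ribosomes when the growth-promoting kinase mTOR is inactive, and p53 is known to restrain mTOR through targets such as the sestrins.

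A TOP motif can be read from the genome where the listed start is the one the cells use. A few starts are shown first because ribosomal proteins and TOP genes made up 71 of the 295 genes with lower TE described below. Each line gives the 10 bases before and the first 20 bases of the gene at its first listed start, on the coding strand, from RefSeq (GRCh38.p14). Capitals mark a run of at least 5 C or T that begins with a C within 3 bases of the start, and lines without capitals have no such run there. C or T directly before the marked stretch, as in RPL21 and RPL41, was not counted, so the stretch can be part of a longer run.
RPL26, chr17:8383174-8383203, minus strand: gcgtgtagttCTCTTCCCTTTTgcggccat
RPL21, chr13:27251548-27251577, plus strand: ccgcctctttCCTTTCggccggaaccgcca
RPS6, chr9:19380217-19380246, minus strand: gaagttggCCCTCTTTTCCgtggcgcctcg
RPS27, chr1:153990752-153990781, plus strand: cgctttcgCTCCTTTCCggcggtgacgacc
RPL41, chr12:56116623-56116652, plus strand: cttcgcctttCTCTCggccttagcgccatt
EEF1A1, chr6:73521013-73521042, minus strand: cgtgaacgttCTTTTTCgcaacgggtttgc
TPT1, chr13:45341164-45341193, minus strand: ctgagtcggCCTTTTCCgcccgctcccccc
EIF4B, chr12:53006446-53006475, plus strand: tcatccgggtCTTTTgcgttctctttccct
EEF2, chr19:3985444-3985473, minus strand: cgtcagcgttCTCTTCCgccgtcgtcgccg
RPL11, chr1:23691769-23691798, plus strand: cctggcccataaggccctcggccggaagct
RPS27L, chr15:63157458-63157487, minus strand: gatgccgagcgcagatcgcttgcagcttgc
GAPDH, chr12:6535254-6535283, plus strand: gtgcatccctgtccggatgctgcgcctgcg

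The 10 libraries differed in depth and in how evenly their reads were spread. Totals worked out from the steps between low FPKM values were 23845559 reads (control) and 26048866 (19 h) for RNA-Seq and 11763298 and 7744900 for Ribo-Seq. A tested gene had a median of 510 footprint reads in the control and 294 at 19 h. A single transcript, ZNF354B, took 13.2% of the footprint reads in the control and 11.2% at 19 h, against 3.08% to 5.09% in the libraries between, and its part in the other values was not tested. All 15 fibroblast markers were above 1 FPKM in both assays and at both times. Of 7 endothelial markers, none was above 1 FPKM in RNA at either time. Of 9 blood cell markers 1 was above it, and of 11 epithelial markers 2, the keratins KRT8 and KRT18.

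Density and RNA changed by different amounts over all tested genes. RNA was higher past 2-fold for 175 genes (2.49%) and lower for 498 (7.1%), while density was higher for 436 (6.22%) and lower for 1045 (14.9%). The median log2 change was -0.067 for RNA and -0.19 for density, and relative to these medians density was higher past 2-fold for 693 genes and lower for 750. TE was higher past 2-fold for 136 genes (1.94%) and lower for 295 (4.21%), with a median of -0.067. Centred on the median of each assay, the TE counts were 204 and 187, so the share of lower genes among those past 2-fold moved with the scaling. The SD across genes was 0.83 for RNA, 0.99 for density and 0.54 for TE, all on the log2 scale, against a median counting error of 0.057, 0.11 and 0.12. Among the genes past 2-fold in TE in either direction, 8 had a 95% counting interval that includes 0.

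**Figure D1:**
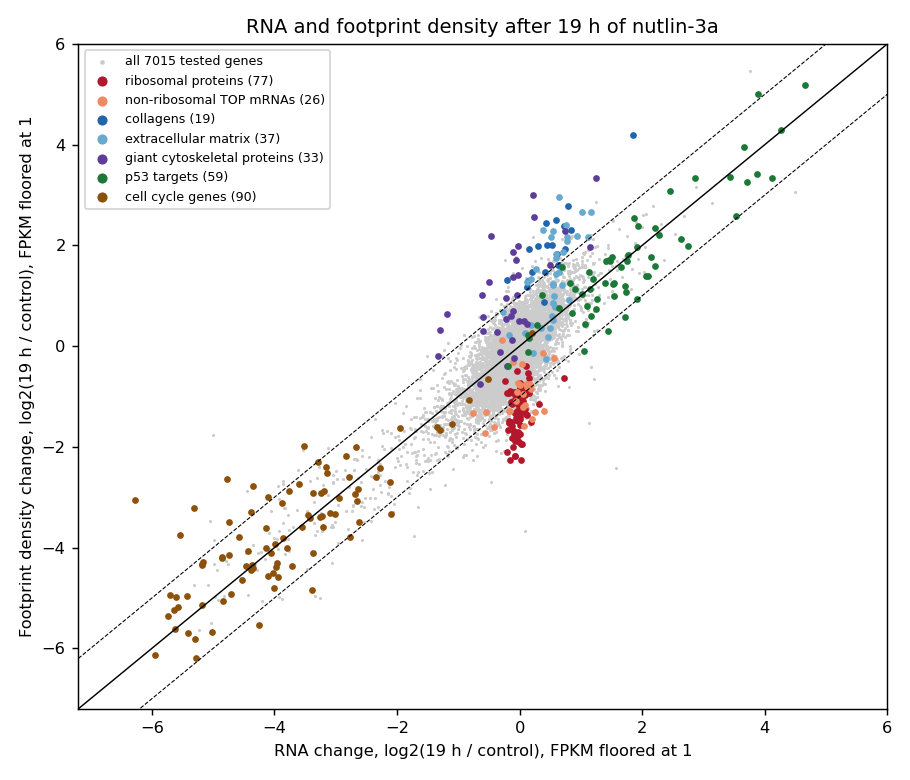
RNA change (horizontal) against footprint density change (vertical) at 19 h over control for 7015 genes, both as log2 ratios of FPKM floored at 1. The solid line marks equal change and the dashed lines a 2-fold change in TE. Ribosomal proteins (red) hang below the line at an RNA change near 0, collagens and giant cytoskeletal proteins (blue, purple) stand above it, and p53 targets (green) and cell cycle genes (brown) spread along it.

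Large changes in RNA mostly appeared in density too. Of the 175 genes with higher RNA 141 were also higher past 2-fold in density, and of the 498 with lower RNA 447 were lower. In the other direction density moved beyond RNA more often. Of the 436 genes with higher density 141 had RNA past 2-fold in the same direction and 123 had an RNA change under 0.5 on the log2 scale (1.75% of tested genes). Among the 1045 with lower density these numbers were 447 and 354 (5.05%). The excess of falls over rises without RNA moved with the scaling. With median centring there were 237 rises and 204 falls, and with the length trend removed 192 and 189. A rise in RNA without a change in density (density change under 0.5) was seen for 11 genes (0.157%) and a fall for 15 (0.214%). Just 2 genes had RNA and density past 2-fold in opposite directions, both with RNA up and density down. These were HIST1H2AC, a histone H2A gene, and NUDT6, which was singled out after its values were seen and had 20 footprint reads at 19 h. HIST1H2AC reached the 5 FPKM of RNA needed for testing only at 6 and 19 h.

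Ribosomal proteins were lower in density while their RNA stayed level. All 47 large subunit and 30 of 32 small subunit proteins were tested, and TE was below 0 on the log2 scale for each of these 77, with a counting interval below 0 for each. Their median TE change was -1.32 for both subunits, which leaves 0.402 of the control TE. TE was lower past 2-fold for 58 of 77, against 4.21% of all tested genes, and higher for 0. RNA hardly moved, with a median change of -0.032, and 76 of 77 members under 0.5. The exception was RPS19, a small subunit protein, with 529 FPKM of RNA in the control and 873 at 19 h while its density went from 1145 to 734 FPKM. The density median of the 77 genes was 807 FPKM in the control and 311 at 19 h, and their RNA medians were 538 and 527. As a share of all footprint reads ribosomal proteins went from 6.3% to 2.71%, and as a share of RNA-Seq reads from 3.95% to 3.93%.

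The size of the fall differed among ribosomal proteins by more than counting error. TE changes ran from -2.29 to -0.45 with an SD of 0.424, while the median counting error of a member was 0.0388. RPL26, a large subunit protein that also binds the p53 mRNA, was lowest. Its RNA was 711 FPKM in the control and 724 at 19 h, and its density in the control and after 2, 4, 6 and 19 h was 685, 428, 734, 310 and 142 FPKM. Density was lowest at 6 and 19 h. This is a TE change of -2.29 (95% counting interval -2.42 to -2.17). RPL21, RPL30 and RPS15A were also past 4-fold, with TE changes of -2.11, -2.10 and -2.10, and RPS4X followed at -1.98.

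At the other end RPS15 had the smallest change. Its density was 1611 FPKM in the control and 1140 at 19 h with RNA at 545 and 529 FPKM, a TE change of -0.45 (-0.52 to -0.39). RPSA, the laminin receptor component of the small subunit, was at -0.46 and FAU, which encodes a ubiquitin-like fusion with a small subunit protein, at -0.49. RPL13 and RPL18 were at -0.67 and -0.73. The intervals of these 5 lie entirely above those of the 5 lowest members. Both sets were picked by this same TE change, so the gap between them adds nothing to the spread given above.

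Several well-known members lay between these ends. RPL5 and RPL11, which bind MDM2 when free of the ribosome, had TE changes of -1.46 and -1.58. For RPL11 the density was 1431 FPKM in the control and 481 at 19 h, and RNA was 853 and 858 FPKM. RPS6, the substrate by which mTOR output is commonly read, went from 842 to 249 FPKM in density (TE change -1.72). RPL39 and RPL41, the shortest ribosomal proteins, were at -1.78 and -0.75. RPS27A, which carries ubiquitin fused to a ribosomal protein, was at -1.32, and RPS27 at -1.68.

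The paralog RPS27L, a p53 target that differs from RPS27 in few residues, behaved unlike its relative in RNA. RNA of RPS27L was 85.8 FPKM in the control and 233 at 19 h, while its density was 178 and 219 FPKM. Its RNA change of 1.44 was therefore met by a density change of 0.30, and its TE change was -1.14 (-1.28 to -0.99), or -0.50 over the 2 h library. Among genes with a density change under 0.5 and at least 5 FPKM in all 4 libraries it had the largest RNA rise. Reads shared by near-identical copies were not counted, so levels of paralogs are uncertain. Of the 5 tested paralogs 2 were lower past 2-fold in TE, against 4.21% of all tested genes. RPL39L was highest at 0.26, with RNA at 30.95 and 6.50 FPKM.

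**Figure D2:**
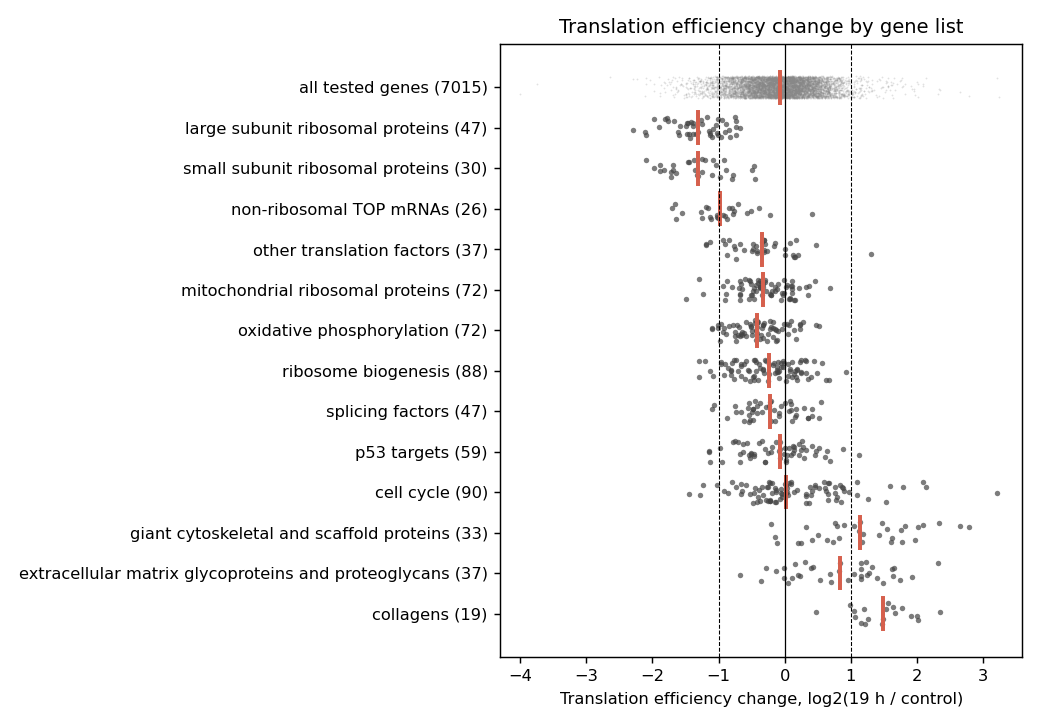
TE change at 19 h over control (log2) for every tested gene and for the members of 13 gene lists, with the number of tested members in brackets. Each point is a gene, the red bar is the list median, and the dashed lines mark a 2-fold change. All ribosomal proteins sit left of 0, and 17 of 19 collagens sit right of the 2-fold line.

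Genes outside the ribosome with a known TOP motif showed the same direction. All 26 were tested. The median TE change was -0.97 and the median RNA change 0.044. In TE 13 were lower past 2-fold and 0 higher, against 4.21% and 1.94% of all tested genes. EEF1A1, the elongation factor that brings tRNA to the ribosome, went from 2011 to 818 FPKM in density while RNA went from 2528 to 3020 FPKM (TE change -1.55). TPT1, translationally controlled tumour protein, went from 483 to 177 FPKM in density and from 727 to 833 FPKM in RNA (TE change -1.64). EIF4B, a helper of the initiation helicase, had the lowest TE change of the list, -1.698 (-1.82 to -1.58), with density at 136 and 55.4 FPKM and RNA at 148 and 195 FPKM.

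The other end of the TOP list held EEF2, PABPC1 and VIM. EEF2, the translocation factor, was at -0.51 with a density of 627 and 572 FPKM, and PABPC1, the poly(A) binding protein, at -0.39. VIM, the fibroblast intermediate filament vimentin, was highest at 0.41, with a density of 3177 FPKM in the control and 3460 at 19 h and RNA at 4194 and 3431 FPKM. The first listed start of EEF2 carries a pyrimidine run as shown above, while that of VIM has no run of at least 5. The first listed start may not be the one used.

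Subunits of the initiation factor eIF3 were uneven, a set singled out after its values were seen. Of 12 tested subunits 5 are on the TOP list. These 5 were EIF3E (TE change -1.66), EIF3L (-1.26), EIF3F (-1.03), EIF3H (-0.85) and EIF3K (-0.77). Of the other 7, EIF3M was at -1.12, and EIF3A, EIF3B, EIF3D, EIF3G, EIF3I and EIF3J ran from -0.49 to 0.17. In the list of other translation factors, 37 were tested and the median TE change was -0.34. Past 2-fold 3 were lower (8.11%) and 1 higher (2.7%), against 4.21% and 1.94% of all tested genes. EIF4E, which binds the mRNA cap, was lowest at -1.19, with density at 152 and 47.9 FPKM and RNA at 63.1 and 45.4 FPKM. EIF4G1, the scaffold that joins the cap-binding protein to the small subunit, was highest at 1.31, with density at 39.4 and 83.7 FPKM. Over the 2 h library EIF4E was at -0.58 and EIF4G1 at 0.23, neither past 2-fold.

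The pyrimidine run itself was common among ribosomal proteins and TOP list genes, and TE was compared between genes with and without it. A first listed start was found for 5811 of 7015 tested genes (82.8%), and a run of at least 5 C or T that begins with a C within 3 bases of it was present in 13.1% of all 27305 starts listed, read on the coding strand. It was present in 47 of 62 ribosomal proteins with a start (75.8%), in 16 of 19 TOP list genes (84.2%) and in 6 of 33 other translation factors (18.2%). Outside ribosomal proteins the median TE change was -0.059 for 4872 genes without a run, -0.085 for 569 with a run of 5 to 7 bases and -0.16 for 308 with a run of 8 or more. In these 3 sets 2.96%, 5.45% and 5.52% were lower past 2-fold in TE. The 19 TOP list genes with a start had a median of -1.01, and 52.6% were lower. Without the TOP list and the other translation factors as well, the median was -0.14 for 297 genes with 8 or more and -0.056 for those without a run. In these 2 sets 4.04% and 2.89% were lower past 2-fold in TE, against 4.08% of all tested genes with a start. Among ribosomal proteins the median was -1.26 for the 47 with a run and -1.34 for the 15 without, RPL11 and RPS4X among the latter. The first listed start need not be the one these cells use. A start without a run therefore does not show that the mRNA lacks a TOP motif. Of the genes lower past 2-fold in TE outside ribosomal proteins that have a start, 48 of 192 carried a run (25%). Among all tested genes with a start, ribosomal proteins included, the share was 15.9%. It was 9.82% (11 of 112) among genes higher past 2-fold in TE. On the collagen, matrix and giant lists, whose TE medians rose, it was 21.4% (15 of 70).

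**Figure D3:**
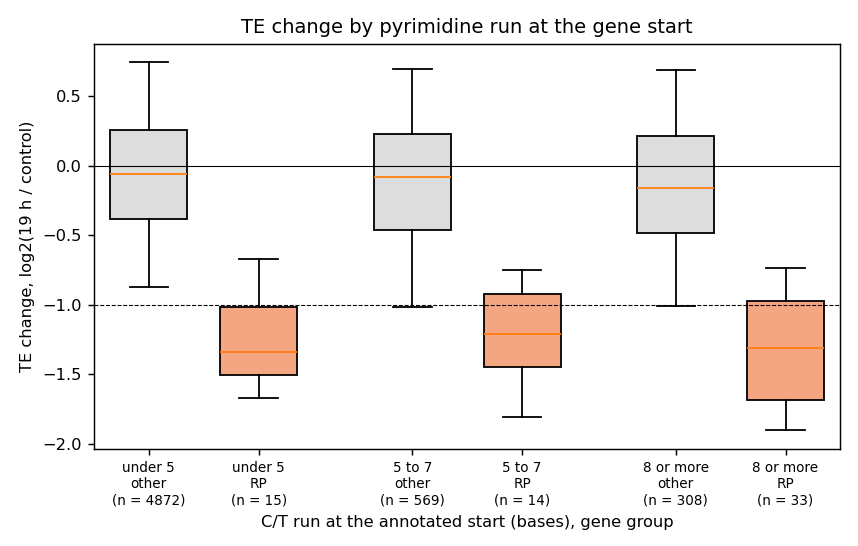
TE change at 19 h over control (log2) by the length of the C/T run at the first listed gene start, for ribosomal proteins (RP, orange) and all other genes (grey). Boxes span the 25th to 75th percentiles with the median as a line and whiskers reach the 5th and 95th percentiles. Ribosomal proteins are low with and without a run at that start, which need not be the one used. The medians of the other genes lie between -0.16 and -0.059.

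The housekeeping lists named in this paragraph had TE medians between -0.42 and -0.22. Others lay above, such as glycolytic enzymes (0.12), lysosome and autophagy genes (-0.073) and endoplasmic reticulum chaperones with secretory factors (-0.037). Counts lower past 2-fold are to be read against the 4.21% of all tested genes. Mitochondrial ribosomal proteins (72 tested) had a median of -0.33 with 3 lower past 2-fold, and subunits of oxidative phosphorylation (72 tested) a median of -0.42 with 4 lower. MRPL50 of the mitochondrial large subunit and COX7B of cytochrome oxidase were the lowest members, at -1.49 and -1.10, and over the 2 h library they were at -0.94 and -0.40. MRPS34 and UQCR11 were the highest, at 0.69 and 0.52. Ribosome biogenesis genes (88 tested) had a median TE change of -0.23, 5 were lower past 2-fold, and their RNA median was -0.45. Splicing factors (47 tested) had an RNA median of -0.66 and a TE median of -0.22. Proteasome subunits (38 tested) had a TE median of -0.27, with 0 past 2-fold.

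Short transcripts were also lower in TE over the control. The 453 tested genes under 1000 nt that encode no ribosomal protein had a median TE change of -0.24, and 45 of them were lower past 2-fold, against 4.21% of all tested genes. Over the 2 h library their median was -0.16, close to the -0.13 of all tested genes. For the 45 ribosomal proteins under 1000 nt the median over the control was -1.25, and for the 32 longer ones it was -1.37. These lengths were recovered from the FPKM values and stand for the whole transcript.

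Histone genes had large falls in density. Replication-dependent histone mRNAs end in a stem-loop in place of a poly(A) tail and are made in S phase. The labels state that RNA was selected by poly(A), and 3 of 64 of these genes passed the filter. Ribo-Seq listed 40 of them, of which 39 were at 5 FPKM or more in the control. These 39, picked by their level in the control, were all lower past 2-fold in density at 19 h, with a median change of -4.55. Of all tested genes 14.9% were lower, but those were chosen by their level in any library of each assay. The 39 and this share therefore rest on unlike choices of genes. The remaining one, HIST2H2AA3, went from 2.53 FPKM to below the floor. Their summed density in the control and after 2, 4, 6 and 19 h was 33780, 26680, 29390, 5073 and 2351 FPKM. HIST1H2AJ had the largest fall of the 39, from 716 to 7.29 FPKM, and HIST4H4 the smallest, from 78.9 to 27.7 FPKM.

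For the 3 tested histones RNA did not fall past 2-fold while density did. HIST1H2BK had 20.5 FPKM of RNA in the control and 21.8 at 19 h, while its density was 782 and 61.7 FPKM (TE change -3.75). HIST1H1C, a linker histone, had 10.2 and 8.55 FPKM of RNA and 1913 and 450 FPKM of density (-1.83). HIST1H2AC had 4.39 and 13.1 FPKM of RNA and 635 and 118 FPKM of density (-4.00). Its RNA was below 5 FPKM in the control and at 2 and 4 h. It was therefore tested only because its RNA was higher at 6 and 19 h (9.91 and 13.1 FPKM). In all 3 the density was far above RNA in the control. The part of the poly(A) selection in these TE values was not tested. Histone genes are near-identical in sequence, so single members are uncertain. Replication-independent histones (8 tested), whose mRNAs are polyadenylated, had a median TE change of 0.022, with 0 past 2-fold.

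Collagens stood at the opposite end. All 19 tested collagens had a TE change above 0 and 17 were higher past 2-fold, against 1.94% of all tested genes, with a median of 1.49. Their median RNA change was 0.45 and their median density change 1.93. COL1A1, a chain of the main fibrillar collagen, had 1642 FPKM of RNA in the control and 2923 at 19 h, and 1063 and 5262 FPKM of density (TE change 1.48). COL1A2, its partner chain, had 1807 and 3011 FPKM of RNA and 1341 and 5124 FPKM of density (1.20). COL7A1, the anchoring fibril collagen, was highest at 2.35 with RNA at 30.3 and 109 FPKM and density at 5.98 and 110 FPKM. COL3A1 was lowest at 0.48. Collagens took 2.13% of footprint reads in the control and 9.22% at 19 h, while their share of RNA-Seq reads went from 4.01% to 6.31%.

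Other matrix proteins and giant proteins of the cytoskeleton were higher as well. Of 37 matrix glycoproteins and proteoglycans 17 were higher past 2-fold in TE and 0 lower (median 0.83). Of 33 giant cytoskeletal and scaffold proteins 19 were higher and 0 lower (median 1.15). Over all tested genes 1.94% were higher and 4.21% lower. FN1, fibronectin, had 1249 and 2114 FPKM of RNA and 147 and 781 FPKM of density (TE change 1.65). HSPG2, the basement membrane proteoglycan perlecan, had the highest TE change of its list, 2.32, and LUM, the small proteoglycan lumican, the lowest, -0.68. PLEC, plectin, which links filament systems, was highest of all genes eligible for naming. It had 167 and 194 FPKM of RNA and 14.6 and 118 FPKM of density, a TE change of 2.79 (2.73 to 2.85). Besides PLEC and NES, the giant proteins among the 10 largest TE rises were FLNC (2.33), LRP1 (2.10), SPTAN1 (2.01) and AHNAK (1.97). NES, the intermediate filament protein nestin, had 138 and 100.1 FPKM of RNA and 21.5 and 97.5 FPKM of density (2.65). MAP4, a microtubule protein, was lowest among the giant proteins, at -0.20. Small cytoskeletal proteins (40 tested) had a median of -0.15.

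These rises depended on which untreated or early library served as the baseline. Against the 2 h library in place of the control, 0 of the 19 collagens, 0 of the 37 matrix proteins and 0 of the 33 giant proteins were higher past 2-fold in TE, and their medians were 0.19, -0.017 and 0.073. Against the 4 h library the medians were 1.25, 0.60 and 0.80. In TE over the control the collagen medians after 2, 4, 6 and 19 h were 1.13, 0.19, 1.41 and 1.49, so the control and the 4 h library lay on one side and the other libraries on the other. Density of FN1 was 147, 476, 220, 696 and 781 FPKM in the control and at 2, 4, 6 and 19 h. For PLEC the same libraries held 14.6, 78.2, 28.2, 99.4 and 118 FPKM. The methods of the study set each condition against a control of its own sequencing run. For the 2 h and 4 h libraries the run is not given in the sources used here, so in comparisons with them run and time cannot be told apart. For COL1A1 density was 1992, 1070, 3984 and 5262 FPKM after 2, 4, 6 and 19 h, and its TE change was 0.49 over the 2 h and 1.46 over the 4 h library.

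The ribosomal protein fall did not depend on the baseline in this way. Their TE medians over the control after 2, 4, 6 and 19 h were -0.15, 0.14, -0.997 and -1.32. With the 2 h library as baseline the median at 19 h was -1.21 and 52 of 77 were lower past 2-fold, and with the 4 h library it was -1.44. Their share of footprint reads in the control and after 2, 4, 6 and 19 h was 6.3%, 5.36%, 7.1%, 3.92% and 2.71%. For the TOP list outside the ribosome the TE medians were 0.012, 0.066, -0.66 and -0.97 at the 4 times.

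**Figure D4:**
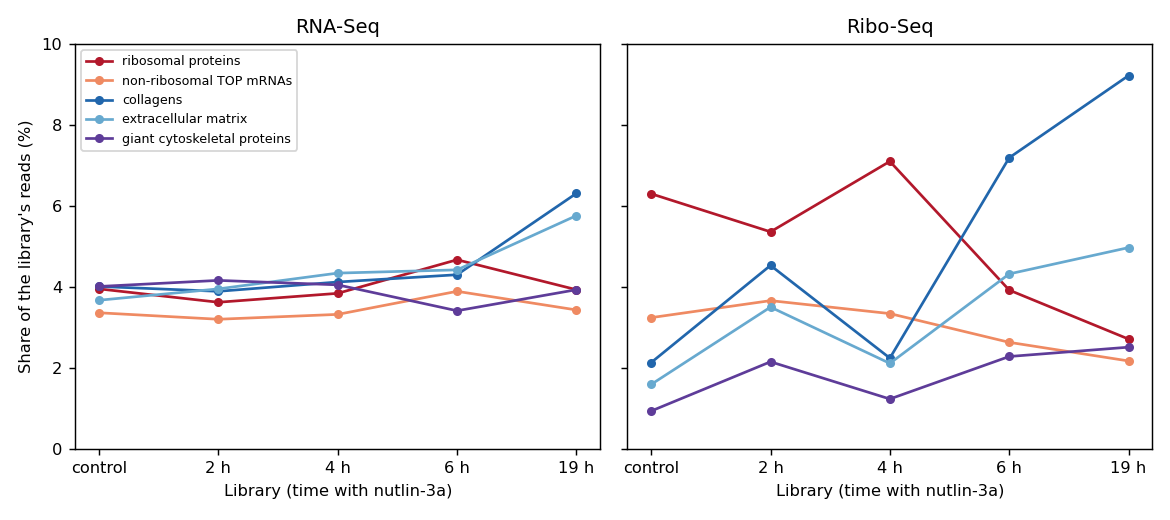
Share of each library's reads (%) that fell on the members of 5 gene lists, for RNA-Seq (left) and Ribo-Seq (right), in the control and at 2, 4, 6 and 19 h of nutlin-3a. In Ribo-Seq the ribosomal protein share ends at 2.71% and the collagen share at 9.22%, and the collagen share is high at 2 h (4.53%) and low again at 4 h (2.24%).

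Transcript length moved with TE over all genes, and the trend depended on the baseline. The tenth of genes with the shortest transcripts (338 to 1140 nt) had a median TE change of -0.31 and the tenth with the longest (5499 to 18787 nt) one of 0.11. The slope was 0.156 on the log2 scale per doubling of length over the control, 0.0482 over the 2 h library and 0.173 over the 4 h library. Genes of over 5000 nt outside the matrix, collagen and giant lists had a median TE change of 0.036 (871 genes, 31 higher past 2-fold), and those of these with at least 50 FPKM of RNA in the control one of 0.14 (84 genes, 8 higher). In the 3 lists the 62 members of over 5000 nt had a median of 1.45 and the 27 shorter ones a median of 0.31. The median length was 5486.5 nt for the 136 genes with higher TE, 1684 nt for the 295 with lower TE and 2604 nt for all tested genes. The part of length in the rises and falls was not tested.

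**Figure D5:**
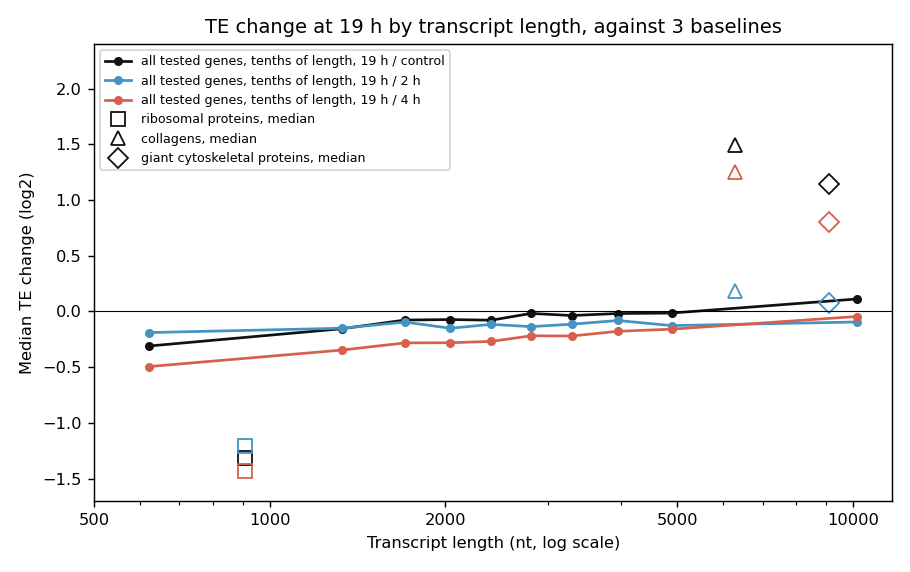
Median TE change at 19 h (log2) against transcript length (nt, log scale) for 10 equal groups of all tested genes, over the control (black), the 2 h library (blue) and the 4 h library (red). Open symbols give the list medians of ribosomal proteins, collagens and giant cytoskeletal proteins, of which only the ribosomal proteins keep their place over all 3 baselines, between -1.21 and -1.44.

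The genes whose density changed without RNA reflect these groups in part. Of the 123 with higher density and an RNA change under 0.5, 24 (19.5%) were on the collagen, matrix or giant lists, which hold 89 of the 7015 tested genes, and 51 (41.5%) were over 5000 nt, a length shared by 934 of the 7015. With at least 5 FPKM in all 4 libraries, the largest such rises were PLEC (density change 3.01), FLNC (2.57), COL4A2 (2.44), TNC (2.30), NES (2.18), RRBP1 (2.17), COL16A1 (2.01) and SPTAN1 (2.00). FLNC is a muscle filamin and SPTAN1 a spectrin, both long actin-binding proteins. TNC, tenascin C, had 285 and 370 FPKM of RNA and 41.3 and 204 FPKM of density. RRBP1, a ribosome receptor of the endoplasmic reticulum, had 116 and 134 FPKM of RNA and 25.6 and 115 FPKM of density. Against the 2 h library the TE changes of PLEC, FLNC, TNC and RRBP1 were 0.48, 0.63, -0.12 and 0.39.

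Of the 354 genes with lower density and an RNA change under 0.5, 55 were ribosomal proteins and 10 others were TOP list genes, together 18.4%, while these lists hold 103 of the 7015 tested genes. Outside ribosomal proteins the largest falls among genes with at least 5 FPKM in all 4 libraries were HIST1H2BK (density change -3.66), HIST1H1C (-2.09), LLPH (-1.75), EIF4E (-1.66), RPF2 (-1.66), NAP1L1 (-1.60), TCEB1 (-1.60) and EIF3E (-1.59). HIST1H2BK and HIST1H1C are replication-dependent histones. Their RNA values come from poly(A)-selected RNA and may not follow the translated mRNA. LLPH and RPF2 act in ribosome assembly, NAP1L1 is a histone chaperone with a TOP motif, and TCEB1 encodes elongin C. LLPH had 33.0 and 28.6 FPKM of RNA and 25.9 and 7.71 FPKM of density, from 378 and 74 footprint reads. NAP1L1 had 93.1 and 69.9 FPKM of RNA and 55.7 and 18.4 FPKM of density. Over the 2 h library the TE changes of LLPH, EIF4E, RPF2, NAP1L1 and TCEB1 were -0.67, -0.58, -0.79, -0.81 and -0.48, none past 2-fold, while those of HIST1H2BK, HIST1H1C and EIF3E were -3.48, -1.75 and -1.58. By TE the remaining genes among the 10 largest falls were C8orf59 (-1.74), AC004223.1 (-1.63) and TATDN1 (-1.49), which were at -1.02, -0.93 and -0.92 over the 2 h library.

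The p53 targets and the cell cycle genes had similar median changes in density and RNA. Of 59 p53 targets 48 were higher past 2-fold in RNA and 43 in density, and their TE median was -0.076, with 1 higher (1.94% of all tested genes) and 3 lower (4.21%). The higher one was GDF15, a secreted stress factor, at 1.12, which rests on the floor, since its RNA in the control was 0.245 FPKM (7 reads), and its counting interval was -0.11 to 2.36. CDKN1A, the cell cycle inhibitor p21, had 164 FPKM of density in the control and 3227 at 19 h with RNA at 68.6 and 1316 FPKM, a TE change of 0.037 (-0.054 to 0.13). MDM2, the ubiquitin ligase of p53, was at -0.78, with density at 5.45 and 55.2 FPKM. The sestrins SESN1 and SESN2, which restrain mTOR, had TE changes of -0.74 and 0.62. The 3 lower p53 targets were RPS27L, CCNG1 (cyclin G1) and TNFAIP8. CCNG1 had 38.3 and 125 FPKM of RNA and 21.2 and 31.8 FPKM of density, a TE change of -1.13. TNFAIP8, a regulator of cell death, was at -1.15 from 39 and 24 footprint reads. Over the 2 h library RPS27L, CCNG1 and TNFAIP8 were at -0.50, -0.85 and -0.50, none past 2-fold.

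Of 90 cell cycle genes 87 were lower past 2-fold in RNA and 88 in density, with medians of -3.97 and -3.69, and 47 had a library below 1 FPKM, where the floor limits the change that can be seen. The TE median was 0.020, with 9 of 90 higher past 2-fold and 4 lower, against 1.94% and 4.21% of all tested genes. MCM7, a subunit of the replicative helicase, had the lowest TE change, -1.44, with density at 111 and 3.89 FPKM and RNA at 98.8 and 9.40 FPKM. MKI67, the proliferation marker, was below the floor at 19 h in both assays, so that its TE change of 3.22 rests on the floor. In a bulk sample fewer cells of a type and less RNA per cell cannot be told apart.

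Several groups under known translational control moved little in TE. Integrated stress response genes (29 tested) had a median of -0.054, with ATF4, its transcription factor, at -0.33. The lowest of them was MTHFD2, a mitochondrial folate enzyme, at -1.09, or -0.51 over the 2 h library. Among 4 mRNAs with an iron-responsive element the median was 0.083, with TFRC, the transferrin receptor, at 0.042. Polyamine genes (10 tested) had a median of -0.088, with ODC1, the first enzyme of the pathway, at 0.42. GAPDH and ACTB, often used as references, were at -0.14 and 0.38.

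Genes with changed RNA and steady density were few. Besides RPS27L, the largest RNA rises with a density change under 0.5 among genes with at least 5 FPKM in all 4 libraries were those of CASP1 (RNA change 1.21, density change 0.30), HSDL2 (1.11 and 0.46), NTPCR (1.10 and 0.41) and DYRK3 (1.07 and 0.44). CASP1 is an inflammatory caspase and DYRK3 a kinase. On the other side were PRKDC, the DNA repair kinase DNA-PKcs, C8orf55, SUN2, a protein of the nuclear envelope, ZMYND19 and ALDH16A1. PRKDC had 59.2 and 24.1 FPKM of RNA and 10.6 and 13.2 FPKM of density, and SUN2 had 68.4 and 28.9 FPKM of RNA and 40.1 and 37.8 FPKM of density. Over the 2 h library the TE changes of PRKDC and SUN2 were 0.083 and 0.28. ZMYND19 kept a TE change of 1.28 over the 2 h library, against 1.23 over the control.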

How the data were processed

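RNA-Seq and Ribo-Seq of BJ cells were deposited as 2 tables, and the values in them are FPKM that the authors computed from reads that Bowtie aligned to 1 isoform of each protein-coding gene. Unique hits alone were kept, and reads common to paralogs are therefore missing. The name of 1 table mentions both assays and that of the other only Ribo-Seq. The former was read as RNA-Seq, and all RNA and TE values rest on this reading. The labels gave group and time, and 1 library per group allowed no test. A floor of 1 FPKM was set, and the log2 ratio of 19 h to control gave the RNA and the density change, whose difference is the TE change. Genes past 2-fold (log2 change of 1) are counted. Transcript lengths and library totals were worked out from the steps between low values (7015 of 7015 tested genes), and reads gave counting intervals at the 95% level. They cover counting error only, as PCR copies could not be told apart. The methods count footprints in the coding sequence while the columns are named total. The same length fitted both tables for 11254 of 11258 transcripts, and 33.9% of these lengths were multiples of 3. Densities were therefore scaled by whole-transcript length and not by that of the coding sequence. Which reads were counted was not settled, so density and TE here can differ from those of the study.

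The members and the 35 gene lists were chosen with earlier results of these data known. Named among the 5414 genes with at least 5 FPKM in all 4 libraries were the 10 largest TE changes in each direction outside ribosomal proteins, the 5 at each end within them, the 8 largest density changes with an RNA change under 0.5, the 5 largest RNA changes with a density change under 0.5. The ends of each list and textbook members were named from all tested genes. RPS19, NUDT6, CCNG1, the eIF3 subunits, ATXN7, the histones outside the tested set and the transcripts seen by Ribo-Seq alone were named after their values were seen. The procedure was checked on simulated data. Python 3.11.15, pandas 2.3.3, numpy 2.4.6 and statsmodels 0.14.6 were used. Alternatives were a floor of 5 FPKM, a pseudocount of 1 FPKM, no filter, a mean of at least 20 FPKM, the 2 h and 4 h libraries as baseline, median centring and removal of the length trend (lowess).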

Additional observations from a re-analysis of the deposited data

Results flagged for a closer look

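Footprints were also present on transcripts that the RNA-Seq table did not list and that no comparison of TE could use. There were 79 such transcripts, and 17 of them were at 5 FPKM or more of density at 19 h. AC084082.3 was by far the most abundant, with 7600 FPKM in the control and 6844 at 19 h. Of the others, most were replication-dependent histones, whose densities were lower than in the control. MRPL33, a mitochondrial ribosomal protein, had 51.0 FPKM in the control and 20.8 at 19 h. FEZF2 and CXXC4 were higher at 19 h than in the control, at 4.06 and 10.7 FPKM and at 2.31 and 8.21 FPKM.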

How the results depend on the processing

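No paired analysis was possible because each group held 1 library. With 1 library per group the spread between cultures is unknown, and the shallower Ribo-Seq library at 19 h limits genes of low density most. The fall of ribosomal proteins and TOP mRNAs kept its direction under all 8 alternatives, while the rise of long matrix and giant proteins did not pass 2-fold over the 2 h library. The causes of the shifts below were not tested.

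With the 2 h library as baseline, density was higher for 193 genes, TE higher for 30 and lower for 148, density higher without RNA for 12 and lower without RNA for 143, and RNA lower without density for 6. The TE medians were -1.21 for ribosomal proteins, 0.19 for collagens, -0.017 for matrix proteins and 0.073 for giant proteins, with 0 members of these last 3 lists past 2-fold. The density changes of NES and AHNAK turned to -0.36 and -0.047, and the TE change of TNC to -0.12. Of 69 named values past 2-fold, 30 stayed past it. With the 4 h library, RNA was higher for 116 genes, density for 252 and TE for 65, density higher without RNA for 65 and RNA lower without density for 5. The medians were -1.44 (ribosomal proteins), 1.25 (collagens), 0.60 (matrix) and 0.80 (giant, 12 past 2-fold).

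With median centring, density was higher for 693 genes and TE lower for 187, density higher without RNA for 237 and lower without RNA for 204, and RNA higher without density for 7. The medians were -1.19 for ribosomal proteins, -0.85 for TOP mRNAs, 1.62 for collagens, 0.96 for matrix and 1.27 for giant proteins. With the length trend removed, TE was lower for 182 genes, and density higher without RNA for 192 and lower without RNA for 189. The medians were -1.03 for ribosomal proteins, -0.78 for TOP mRNAs, 1.42 for collagens and 0.94 for giant proteins.

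A mean of at least 20 FPKM left fewer genes to test, with RNA higher for 50 and lower for 141, density for 185 and 367, TE for 68 and 126, density without RNA for 58 and 156, and RNA without density for 1 and 2. The giant list had a median of 1.43 with 12 past 2-fold. Without a filter RNA was higher for 297 genes, TE higher for 258 and lower for 492, and RNA without density higher for 52 and lower for 72. A floor of 5 FPKM gave 17 genes with RNA higher and 54 with RNA lower without density and a matrix median of 0.70. A pseudocount of 1 FPKM gave 5 genes with RNA higher without density and a collagen median of 1.36.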

Other observations

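Other lists held single genes past 2-fold over the control, and none of the 5 named next was past it over the 2 h library. Cytosolic aminoacyl-tRNA synthetases (22 tested) had a median TE change of -0.26, while VARS, the valine enzyme, was at 1.32 (0.33 over the 2 h library). Among genes of sterol and fatty acid synthesis (28 tested, median 0.17) FASN, fatty acid synthase, was highest at 1.39 (0.31 over the 2 h library). Glycolytic enzymes (17 tested) had a median of 0.12, with LDHB, a lactate dehydrogenase subunit, at -1.02 (-0.82 over the 2 h library). Lysosome and autophagy genes (36 tested) had a median of -0.073, with ATG12, a ubiquitin-like autophagy protein, at -1.36 (-0.79). Genes of mTOR signalling and its inhibitors (26 tested) had a median of 0.19, and the lowest was PRKAA1, a catalytic subunit of the kinase AMPK, at -1.05 (-0.68).

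Chaperones of the cytosol and mitochondria (27 tested) had a median of -0.24, those of the endoplasmic reticulum with secretory factors (50 tested) one of -0.037, and antioxidant genes (25 tested) one of -0.18, all with 0 past 2-fold. Selenoproteins (9 tested) had a median of 0.27. Secreted cytokines and immediate-early genes (29 tested) had a median of 0.31. Past 2-fold 1 was higher and 1 lower, against 1.94% and 4.21% of all tested genes. ATXN7, an ataxin, was singled out after its values were seen. Its RNA was 6.00 FPKM in the control and 5.54 at 19 h, and its density in the control and after 2, 4, 6 and 19 h was 72.3, 86.4, 259, 334 and 198 FPKM.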
